A study of Mus musculus with 14 samples.

Results

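The genes described here encode glycoproteins of the extracellular matrix that have been linked to the premetastatic niche, the altered tissue that a primary tumour may induce at a distant site before tumour cells settle there. The list named 9 genes, Fn1, Vcan, Postn, Tnc, Spp1, Thbs1, Eln, Fbn1 and Ltbp2, and every probe set whose single platform gene symbol was on that list was taken. Spp1 and Fbn1 were not analysed here, and the other 7 genes had 18 probe sets among the 45101 of the array. Of these 18, 9 were bright enough to be tested and belonged to 6 genes. The remaining 9, which included all 8 probe sets of Vcan, lay under the level filter and are described by their values. A further probe set that Thbs1 shares with another gene was left out.

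Whole lung tissue of BALB/c mice was measured on Affymetrix arrays with 1 array per sample. The mice of the 4T1 group (4 arrays) carried a tumour of 4T1, a mouse mammary carcinoma line that the labels call metastatic, injected into a mammary fat pad. Those of the 67NR group (5 arrays) carried a tumour of 67NR, which the labels call nonmetastatic, placed in the same way, and normal mice (5 arrays) received PBS alone. Lungs were taken on day 6 or once tumours had reached around 50 mm3, and in all groups the lungs were flushed of blood with PBS. Each class of tumour is 1 cell line, so a difference between classes cannot be told apart from a difference between lines. The labels used here state neither age nor sex. They number the samples within a group without tying a sample to a mouse, so p-values reflect only the spread from sample to sample, which may be technical.

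Array medians lay between 113.2 and 116.1 intensity units. Gapdh signal at the 3′ end relative to the 5′ end, which reflects RNA integrity, had log2 ratios that ran between -0.50 and -0.39 in 4T1, -0.58 and -0.36 in 67NR and -0.56 and -0.41 in normal lungs. Root mean square differences within groups of 0.197 to 0.318 on the log2 scale showed no array deposited in duplicate. Defining lung markers were bright in every group: surfactant protein Sftpc averaged 7694 in 4T1, 7952 in 67NR and 8158 in normal lungs, and Ager of alveolar type 1 cells 9657, 9361 and 9400.1 in the same order. In 67NR lungs 2 arrays, replicates 1 and 3, stood farthest apart in genes of the circadian clock. The Eln changes that involve them are given with and without these arrays. Replicates 2 and 4 of 67NR were also lower in the mean of these clock genes than every 4T1 and every normal array.

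The matrix around lung cells combines elastic fibres, adhesive glycoproteins and matricellular proteins. Elastin is cross-linked on a scaffold of fibrillin microfibrils, and this network gives alveoli and vessels their recoil. Fibronectin assembles into fibrils that cells grip through integrins, while periostin, tenascin-C and thrombospondin-1 mainly modulate how cells adhere and how growth factors are held or activated. Versican is a large hyaluronan-binding proteoglycan. Several of these proteins are deposited by fibroblasts and, in tumour-bearing animals, by recruited myeloid cells.

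No tested probe set of these genes passed the threshold, an adjusted p under 0.05 in limma with Benjamini-Hochberg adjustment, in any of the comparisons. In 4T1 against normal lungs 0 of 9 were called, where 0.3% of all 20975 probe sets tested were. In 67NR against normal lungs 0 of 9 were called, where 0% of all were, and in 4T1 against 67NR lungs 0 of 9, where 0.453% were. At this background, 0 calls among 9 probe sets is near what the whole table gives and is not a result about these genes. With limma an unadjusted p under 0.05 was reached by 1, 3 and 2 of the 9 in the same order, against 6.44%, 8.52% and 11.3% of all probe sets. The 3 and the 2 include the dimmer Eln probe set, which passed the level filter only through the 67NR group. The median log2 change of the 9 was -0.06 in 4T1 against normal, 0.09 in 67NR against normal and -0.0058 in 4T1 against 67NR lungs, beside medians over all probe sets of -0.0040, 0.00099 and -0.0062. None of the 9 had groups that did not overlap in 4T1 against normal lungs, as 2.83% of all did, or in 67NR against normal lungs, as 1.53% did. The first 2 comparisons share the 5 normal arrays. In bulk tissue, fewer cells of a type and less RNA per cell cannot be told apart.

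**Figure D1:**
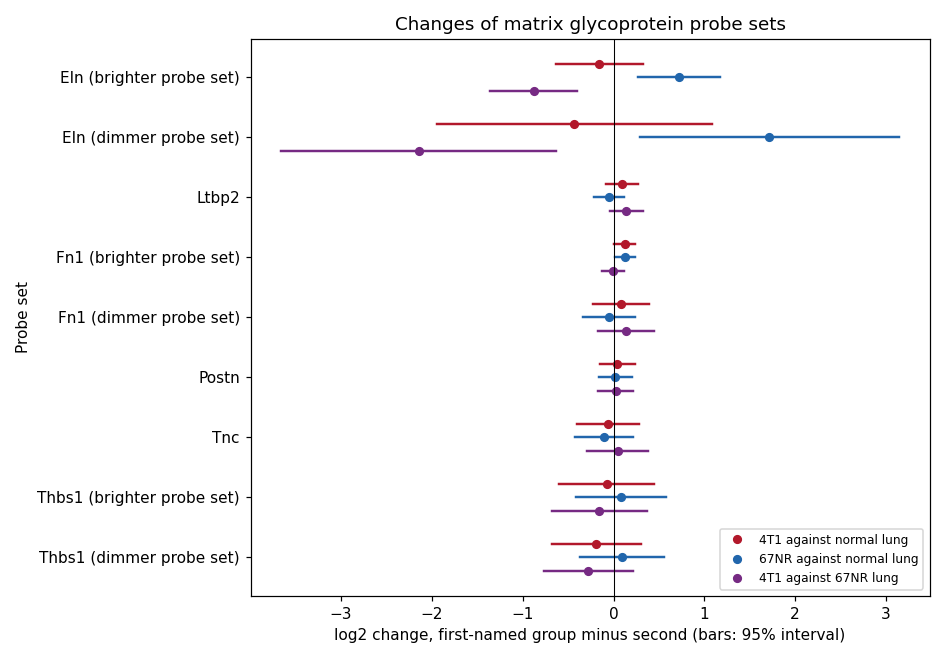
Log2 changes of the 9 tested probe sets (points) with their 95% intervals (bars) from limma, as the first-named group minus the second, in 4T1 against normal (red), 67NR against normal (blue) and 4T1 against 67NR lungs (purple). The intervals of both Eln probe sets lie above 0 in 67NR against normal lungs and below 0 in 4T1 against 67NR lungs, before adjustment over all probe sets. The dimmer Eln probe set passed the level filter only through the 67NR group, so its intervals are no separate support.

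Eln encodes tropoelastin, the soluble precursor of the elastic fibre. Its brighter probe set, 1420855_at, read 2056, 2156, 2095 and 2429.8 in 4T1 lungs. It read 6365, 4045, 4226, 3329 and 2898 in 67NR lungs. Normal lungs read 2348, 1791, 2012, 3899 and 2573. Every 67NR array was above every 4T1 array, a separation seen in 4.1% of all probe sets tested in either direction and in 2.23% with 4T1 the lower group. The normal arrays overlapped both tumour groups, with replicate 4 inside the 67NR range. The log2 change in 4T1 against 67NR lungs was -0.88 (SE 0.22, 95% interval -1.36 to -0.40, limma adjusted p = 0.118). In 67NR against normal lungs it was 0.72 (SE 0.21, 95% interval 0.27 to 1.17, limma adjusted p = 0.372), and in 4T1 against normal lungs -0.16 (95% interval -0.63 to 0.32).

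The dimmer Eln probe set, 1420854_at, read 32.6, 73.9, 28.1 and 76.4 in 4T1 lungs. In 67NR lungs it read 845, 369, 324, 321 and 35.7. In normal lungs it read 37.9, 29.5, 38.6, 299 and 106. Its mean log2 level over all arrays was 6.94, just above the filter at 6.83. Only the 67NR group carried it over the filter, with group means of 6.02 in 4T1, 8.17 in 67NR and 6.45 in normal lungs. Its tests are therefore no separate support for a higher Eln level in 67NR lungs. Of the 67NR arrays, 4 were above all 4T1 and all normal arrays, and replicate 5 lay among the low ones. The log2 change was -2.15 in 4T1 against 67NR lungs (SE 0.70, limma adjusted p = 0.238) and 1.71 in 67NR against normal lungs (SE 0.66, limma adjusted p = 0.511). In 4T1 against normal lungs it was -0.43 (95% interval -1.94 to 1.08, limma adjusted p = 0.972). Without 67NR replicate 5 the difference between 4T1 and 67NR lungs was -2.76 with a limma adjusted p of 0.0392, the only setting tried in which a probe set of these genes was called. Both Eln probe sets followed each other over the 14 arrays (Pearson r = 0.93). Without normal replicate 4, the array with the highest Eln among normal lungs, the change in 4T1 against normal lungs was 0.013 for the brighter probe set, in place of -0.16, and 0.030 for the dimmer one, in place of -0.43.

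**Figure D2:**
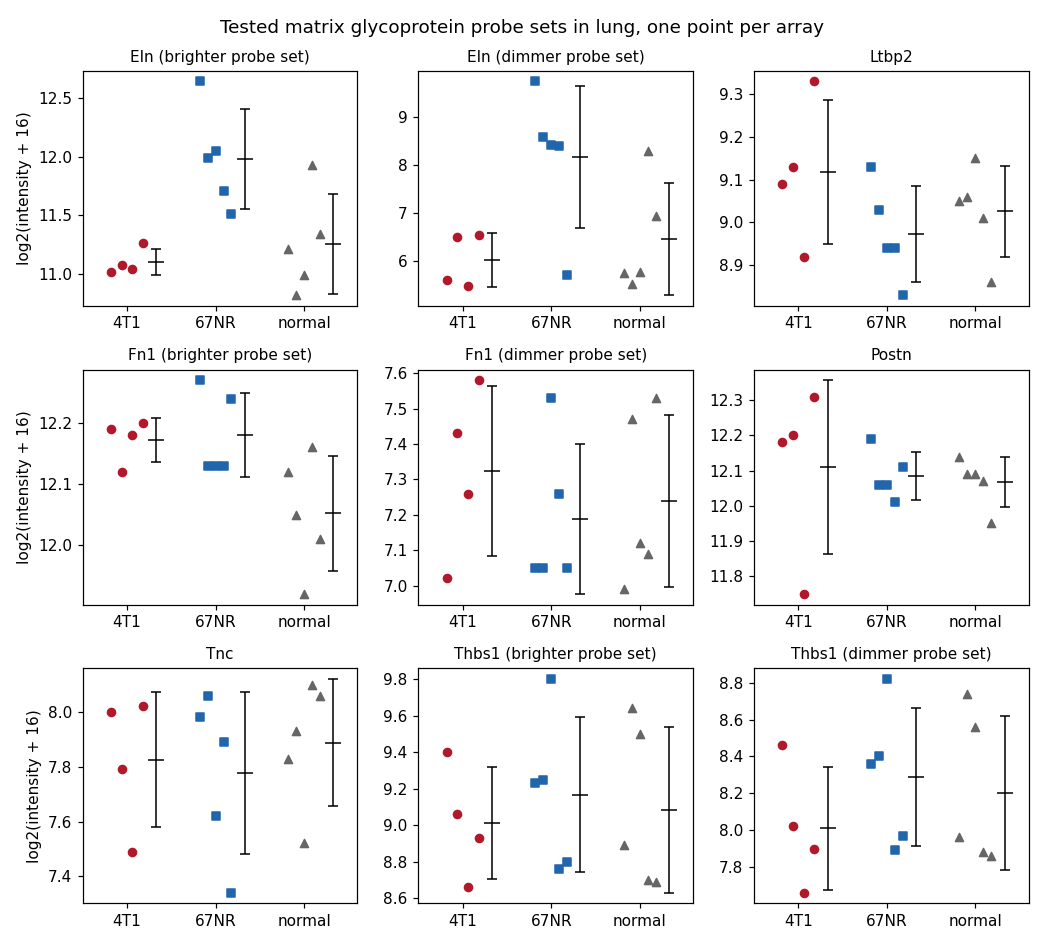
Log2(intensity + 16) of each tested probe set in 4T1 (red circles), 67NR (blue squares) and normal lungs (grey triangles), with 1 point per array and the group mean ± SD beside it; the vertical scales differ between panels and do not start at 0. The 67NR points of the brighter Eln probe set lie above all 4T1 points, and the groups overlap in the other panels.

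Eln varied more between arrays of a group than most genes did. Its pooled SD within groups was 0.37 for the brighter probe set, at the 97.1st percentile of all probe sets tested, where the median SD was 0.13. The variation went with the level of clock output genes, the transcription factors and repressors (Dbp, Hlf, Tef, Nr1d1, Nr1d2, Ciart, Per2 and Per3) whose mRNA cycles over the day. The mean log2 level of these 8 genes was 10.47, 10.58, 10.17 and 10.55 in 4T1 lungs. In 67NR lungs it was 7.88, 9.81, 8.48, 9.68 and 10.35, and in normal lungs 10.45, 10.63, 10.71, 10.03 and 10.27. The 67NR array lowest in clock output, replicate 1, was the highest in Eln, and the normal array lowest in clock output, replicate 4, was the highest in Eln of its group. The 4T1 arrays did not show this: replicate 3 was lowest in clock output, at 10.17, with an Eln log2 level of 11.04. Replicate 4 was the highest 4T1 array in Eln, at 11.26, with a clock output of 10.55.

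Over the 14 arrays the correlation of Eln with the clock output mean was r = -0.88 (Spearman rho = -0.88), with a two-sided permutation p of 2e-05 for r and 7e-05 for rho. It was the strongest of 77 relations computed between these genes and marker lists, and the permutation p of r adjusted over the 77 was 0.00154. The permutations moved arrays between groups, so these p-values also take in the differences between groups. Within groups, on deviations from the group means, r was -0.77, for which no p was computed. Without 67NR replicates 1 and 3, r over the remaining arrays was -0.83, with the differences between groups left in. The clock list was chosen with earlier results of these data known, which the adjustment over the 77 does not cover. In 67NR against normal lungs 0 of the 8 clock genes had a positive change, and in 4T1 against 67NR lungs 8 of 8 did (median 1.05), with 0 called by limma in either. Without 67NR replicates 1 and 3 the change of the brighter Eln probe set was -0.63 in 4T1 against 67NR lungs (limma adjusted p = 0.276) and 0.48 in 67NR against normal lungs (limma adjusted p = 0.460). Without the same arrays the dimmer Eln probe set had -1.54 (limma adjusted p = 0.498) and 1.11 (limma adjusted p = 0.663) in these comparisons, against -2.15 and 1.71 with all arrays. These fits kept 67NR replicates 2 and 4, whose clock output means of 9.81 and 9.68 lay below all 4T1 and all normal arrays. They are therefore not free of the clock difference. The labels used here give no time of day of sampling, and the part of the clock in the Eln values was not tested.

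**Figure D3:**
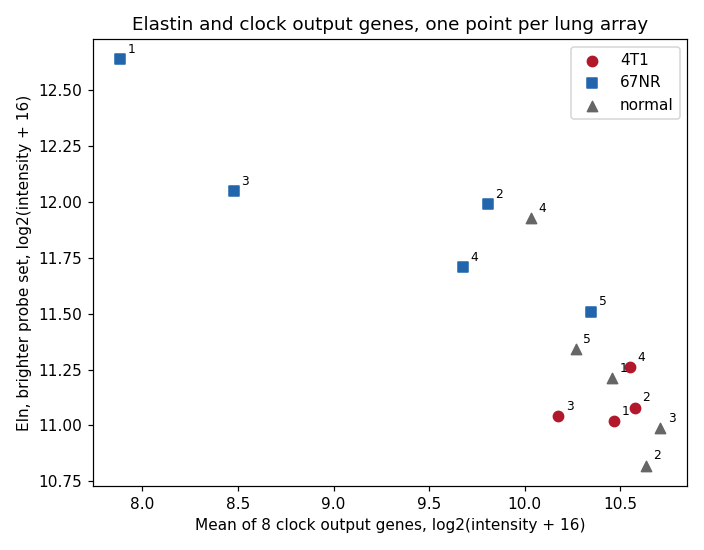
Level of the brighter Eln probe set against the mean level of 8 clock output genes, both as log2(intensity + 16), with 1 point per array of 4T1 (red circles), 67NR (blue squares) and normal lungs (grey triangles); numbers are replicate numbers. Over all arrays Eln is higher where clock output is lower, which the 4T1 points alone do not show, and 67NR replicate 1 lies at the far end of both.

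Eln also followed the fibroblast markers within groups (r = 0.71 on deviations from the group means), but over all 14 arrays this relation had r = 0.48, with a permutation p adjusted over the 77 relations of 0.59. Within groups Eln had r = 0.63 with heart, fat and skeletal muscle markers, 0.61 with neutrophil markers and 0.47 with smooth muscle markers. Over all arrays these relations had r = 0.26, -0.32 and 0.22 (adjusted permutation p of r 0.693, 0.646 and 0.805). The summed intensity of the 7 fibroblast markers, collagen genes among them, overlapped between groups at 24395 to 28576 in 4T1, 23769 to 28852 in 67NR and 24213 to 28693 in normal lungs. Smooth muscle markers, whose cells are a main source of elastin in vessel walls, summed to 9702 to 10704 in 4T1, 8043 to 11394 in 67NR and 9132 to 9943 in normal lungs.

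Ltbp2, named for the latent TGF-beta binding protein family, encodes a protein of the fibrillin microfibril. It read 530.2, 542, 469.8 and 626 in 4T1 lungs. It read 546, 508, 474, 477 and 439 in 67NR lungs and 513, 517, 552, 499.6 and 448 in normal lungs. The groups overlapped in all comparisons. The 95% intervals of the log2 change ran between -0.086 and 0.27 in 4T1 against normal, between -0.22 and 0.12 in 67NR against normal and between -0.037 and 0.32 in 4T1 against 67NR lungs, so they leave room for changes of either sign.

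Fn1, fibronectin, was the steadiest of the 6 tested genes by its brighter probe set, with a pooled SD within groups of 0.072 at the 13.7th percentile of all probe sets tested. Its brighter probe set, 1426642_at, read 4666, 4434, 4610.3 and 4696 in 4T1 lungs. It read 4907, 4475, 4458, 4456 and 4819 in 67NR lungs, and 4434, 4212, 3863, 4556 and 4117 in normal lungs. In 4T1 lungs 3 of 4 arrays were above every normal array, as were 2 of 5 in 67NR lungs, and both groups overlapped the normal one. The log2 change was 0.12 in 4T1 (95% interval 0.0027 to 0.24, limma adjusted p = 0.766) and 0.13 in 67NR lungs (95% interval 0.015 to 0.24, limma adjusted p = 0.546), each against the same normal arrays. Between 4T1 and 67NR lungs it was -0.0058, with a 95% interval of -0.12 to 0.11. The dimmer Fn1 probe set did not follow the brighter one (r = -0.26 over 14 arrays), with changes of 0.084 in 4T1 against normal, -0.051 in 67NR against normal and 0.14 in 4T1 against 67NR lungs.

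Postn encodes periostin, a matricellular protein that binds collagen, tenascin-C and integrins. It read 4631, 4698, 3439 and 5052 in 4T1 lungs. It read 4671, 4262, 4264, 4121 and 4412 in 67NR lungs, and 4503, 4354, 4356, 4284 and 3939 in normal lungs. The 4T1 arrays held both the lowest and the highest value of all 14, and the groups overlapped. The log2 changes were 0.042 in 4T1 against normal (95% interval -0.15 to 0.24), 0.020 in 67NR against normal (95% interval -0.16 to 0.20) and 0.022 in 4T1 against 67NR lungs (95% interval -0.17 to 0.22). With the alveolar and airway epithelium markers Postn had r = 0.68 over all arrays (rho = 0.46) and Ltbp2 r = 0.46. The permutation p of r adjusted over the 77 relations was 0.18 and 0.59. Without 4T1 replicate 3 and 67NR replicate 4 the Postn value was 0.43. The part of these cells in the Postn and Ltbp2 values was not tested.

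Postn and Ltbp2 had the highest correlation of the 21 pairs of these genes over all arrays. On deviations from the group means alone, Vcan and Eln had the higher value, 0.83, against 0.46 over all arrays (rho = 0.39, permutation p of r adjusted over the 21 pairs 0.413). The correlation of Postn with Ltbp2 was r = 0.71 (rho = 0.74) over 14 arrays and 0.76 within groups. Without 4T1 replicates 3 and 4, the arrays farthest from the median of Postn, r of Postn with Ltbp2 over the remaining arrays was 0.67. The permutation p was 0.00607 for r and 0.00333 for rho, and adjusted over the 21 pairs 0.127 and 0.0699, so the relation did not pass the adjustment. The same pair is shown here by the promoter windows that RefSeq places 250 bases before to 50 bases after the start of transcription (build GRCm38.p6), in which capitals mark the TATA box TATAAA or the SMAD motif CAGAC, each searched on both strands.
Postn: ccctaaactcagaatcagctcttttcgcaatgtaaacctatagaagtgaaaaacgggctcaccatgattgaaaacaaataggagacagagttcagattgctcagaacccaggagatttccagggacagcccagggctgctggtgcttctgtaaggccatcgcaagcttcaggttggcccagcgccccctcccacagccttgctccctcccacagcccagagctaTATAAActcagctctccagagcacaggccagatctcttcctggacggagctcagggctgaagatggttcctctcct
Ltbp2: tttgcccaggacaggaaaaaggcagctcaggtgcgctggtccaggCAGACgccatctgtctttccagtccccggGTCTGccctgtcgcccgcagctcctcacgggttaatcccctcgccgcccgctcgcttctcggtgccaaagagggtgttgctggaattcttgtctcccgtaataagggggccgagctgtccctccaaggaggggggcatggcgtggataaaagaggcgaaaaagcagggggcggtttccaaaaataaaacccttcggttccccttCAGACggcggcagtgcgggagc
The Postn window lies on the plus strand at chr3:54360857-54361156 and is 1 of 2 listed for this gene, chosen for its TATA box, and the Ltbp2 window on the minus strand at chr12:84876442-84876741. Postn held 1 TATAAA, which begins at position -26 from the start and is found in 13.6% of all 32851 windows. The other Postn window, which begins at base 54359017 of chromosome 3, held 1 CAGAC at position -191 from its start and no TATAAA. Ltbp2 held 3 CAGAC matches and no TATAAA, and CAGAC is found in 49.6% of windows. Neither window held the E-box CACGTG (7.2% of windows) or the AP-1 motif TGANTCA (7.8% of windows). Matches are a description of the letters and not of bound factors. Windows were listed for 4 of the 7 genes, Vcan, Postn, Tnc and Ltbp2.

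Tnc encodes tenascin-C, a glycoprotein of developing and wounded tissue. Its brighter probe set read 240.4, 206, 163 and 243 in 4T1 lungs. It read 237, 252, 181, 222 and 146 in 67NR lungs, and 211, 227, 168, 258 and 250.3 in normal lungs. All groups covered nearly the same range, and the log2 change was -0.06 in 4T1 against normal (95% interval -0.40 to 0.28), -0.10 in 67NR against normal (95% interval -0.43 to 0.22) and 0.044 in 4T1 against 67NR lungs (95% interval -0.30 to 0.38). The other Tnc probe set lay under the filter with an intensity of 9.19 on 67NR replicate 1 and of 0.789 to 1.67 on the other arrays.

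Thbs1, thrombospondin-1, is carried by platelets and made by many stromal cells, and it can activate latent TGF-beta. Its brighter probe set, 1460302_at, read 658, 518, 388 and 472 in 4T1 lungs. It read 584, 595, 877, 419 and 430.5 in 67NR lungs, and 458, 783, 707, 401 and 398 in normal lungs. Each group spanned a wide range and the groups overlapped. Both Thbs1 probe sets followed each other closely (r = 0.98 over 14 arrays), and their pooled SDs within groups stood at the 97.7th and 97.3rd percentiles of all probe sets tested. The log2 change of the brighter one was -0.07 in 4T1 against normal (95% interval -0.60 to 0.45), 0.09 in 67NR against normal (95% interval -0.41 to 0.58) and -0.16 in 4T1 against 67NR lungs (95% interval -0.68 to 0.36). Its correlation with the mean of the platelet and megakaryocyte markers over 14 arrays was r = -0.33 (rho = -0.34, permutation p of r adjusted over the 77 relations 0.646).

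Vcan, versican, was dim on these arrays, and none of its 8 probe sets passed the level filter. The brightest, 1427256_at, read 84.1, 89.3, 85 and 82.5 in 4T1 lungs. It read 101, 89.5, 74, 73.2 and 59 in 67NR lungs, and 75.9, 58.5, 70.2, 86.2 and 65 in normal lungs. Of the 4T1 arrays 1 lay above all normal arrays, and the groups overlapped. In the fit without a filter its log2 change was 0.22 in 4T1 against normal lungs (limma adjusted p = 0.915), 0.12 in 67NR against normal and 0.10 in 4T1 against 67NR lungs. A dimmer probe set, 1421694_a_at, singled out after its values were seen, had the largest change of the 8. It read 24.1, 15.3, 33.4 and 24.6 in 4T1 lungs, 21.5, 9.84, 32.9, 11.7 and 6.33 in 67NR lungs and 6.06, 11.1, 5.75, 25.1 and 4.91 in normal lungs. All but one normal array, replicate 4, lay under all 4T1 arrays. The change was 0.63 in 4T1 against normal lungs (limma adjusted p = 0.757 in the fit without a filter). The other 6 probe sets had intensities between 0.974 and 55.7. In the fit without a filter their changes in 4T1 against normal lungs were -0.14, -0.077, -0.044, -0.025, 0.037 and 0.045, so the Vcan probe sets did not share a direction. The correlation of the brightest Vcan probe set with each of the other 7 ran between -0.50 and 0.55 over 14 arrays, the highest being with 1421694_a_at.

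For each gene the probe sets most like its brightest one over the 14 arrays were found among those tested, and the strongest likeness is a description without a test. Eln was most like Gm13889 (r = 0.94), Rftn2 (r = 0.92) and Lasp1 (r = 0.92), and r stayed between 0.81 and 0.91 on deviations from the group means. Ltbp2 was most like Art3 (r = 0.85), Ager (r = 0.84) and Col23a1 (r = 0.84), and Postn most like Secisbp2 (r = 0.87), Itgb1 (r = 0.84) and Npnt (r = 0.84). Itgb1 encodes the beta-1 integrin chain. Fn1 was most like Son (r = 0.89), Thbs1 most like Golph3 (r = 0.89), Tnc most like Glrx2 (r = 0.85) and Vcan most like Cks2 (r = 0.83). All these points share the same 14 arrays and their scaling.

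Lists of related matrix, receptor and TGF-beta genes held 93 genes, of which 80 had tested probe sets (152 probe sets). In 4T1 against normal lungs 5 of the 152 probe sets, of 2 genes, were higher, where 0.291% of all probe sets were, and 0 were lower, where 0.00954% were. In 67NR against normal lungs 0 were called in limma, as in the whole table, and in 4T1 against 67NR lungs 4 probe sets of 1 gene were higher, where 0.348% of all were, and 0 were lower, where 0.105% were. The median log2 change over the 152 was 0.017, 0.00072 and 0.011 in the same order. The lists were chosen with earlier results of these data known.

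Tgfbi, an adhesive matrix protein induced by TGF-beta that binds collagen and integrins, rose in 4T1 lungs on all 4 of its tested probe sets. The brightest, 1456250_x_at, read 3163, 2569.7, 3584 and 2853 in 4T1 lungs. It read 2059, 1916, 2136, 2115 and 2068 in 67NR lungs, and 2207, 2314, 2167, 2108 and 2367 in normal lungs. Every 4T1 array was above every 67NR array, as in 1.87% of all probe sets, and above every normal array, as in 1.34%. In limma the log2 change was 0.55 in 4T1 against 67NR lungs (SE 0.079, 1.46-fold, adjusted p = 0.00505) and 0.43 in 4T1 against normal lungs (SE 0.079, 1.35-fold, adjusted p = 0.0325). The other 3 probe sets had changes of 0.52 to 0.55 and of 0.40 to 0.46, and 67NR against normal lungs gave -0.12 for the brightest (limma adjusted p = 0.719). For the brightest probe set, the call against normal lungs was lost in 15 of 25 alternative settings (limma adjusted p 0.00368 to 0.159), and the call against 67NR lungs held in all 25 (adjusted p 0.000816 to 0.0484). With 1 array left out, its call against normal lungs was kept without 4T1 replicate 2, 67NR replicate 2 or normal replicate 5 and lost without any 1 of the other 11 arrays. Probe sets whose names end in _x_at or _s_at can match transcripts of other genes, and 1415871_at, which is neither, gave 0.55 and 0.46.

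The RefSeq promoter window of Tgfbi is shown because it is the related gene that rose in 4T1 lungs in both comparisons (GRCm38.p6, chr13:56609336-56609635, plus strand), with capitals for the SMAD motif CAGAC or its reverse complement.
Tgfbi: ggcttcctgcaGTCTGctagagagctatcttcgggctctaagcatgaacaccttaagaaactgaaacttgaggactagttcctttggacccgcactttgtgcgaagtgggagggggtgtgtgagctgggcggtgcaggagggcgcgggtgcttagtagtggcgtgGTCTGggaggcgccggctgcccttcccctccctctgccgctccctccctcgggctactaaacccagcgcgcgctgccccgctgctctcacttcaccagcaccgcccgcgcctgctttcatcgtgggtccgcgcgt
It held 2 matches to CAGAC and no TATA box, E-box or AP-1 motif as spelled above.

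Emilin2, an elastin microfibril interfacer, read 770.1, 523, 1003 and 674 in 4T1 lungs. It read 538, 474, 452, 537 and 506 in 67NR lungs, and 469.6, 410.1, 421, 411 and 489 in normal lungs. All 4T1 arrays were above all normal arrays, as in 1.34% of all probe sets tested, and the 4T1 array of 523 lay among the 67NR arrays. It rose in 4T1 against normal lungs by 0.70 on the log2 scale (SE 0.14, 1.62-fold, limma adjusted p = 0.0499), close to the threshold. The change in 4T1 against 67NR lungs was 0.52 (limma adjusted p = 0.129). The call against normal lungs was lost in 18 of 25 alternative settings (adjusted p 0.00212 to 0.201), 13 of them with 1 array left out, and it was kept only without 4T1 replicate 2 among those. Without that array Emilin2 also passed in 4T1 against 67NR lungs (0.67, limma adjusted p = 0.0170).

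Neutrophil markers were also higher in 4T1 lungs, and their correlation with these 2 genes over the arrays was not computed. Of 9 such markers, which include S100a8, S100a9 and Camp, all had a positive change in 4T1 against normal and in 4T1 against 67NR lungs (medians 2.34 and 2.10), and 7 of 8 tested were called higher in each. Their summed intensity was 22875 to 31512 in 4T1, 5733 to 9169 in 67NR and 4147 to 7632 in normal lungs. Monocyte and macrophage markers summed to 8695 to 9353 in 4T1, 8523 to 8986 in 67NR and 7898 to 9150.1 in normal lungs. The part of either cell type in the Tgfbi and Emilin2 values was not tested.

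**Figure D4:**
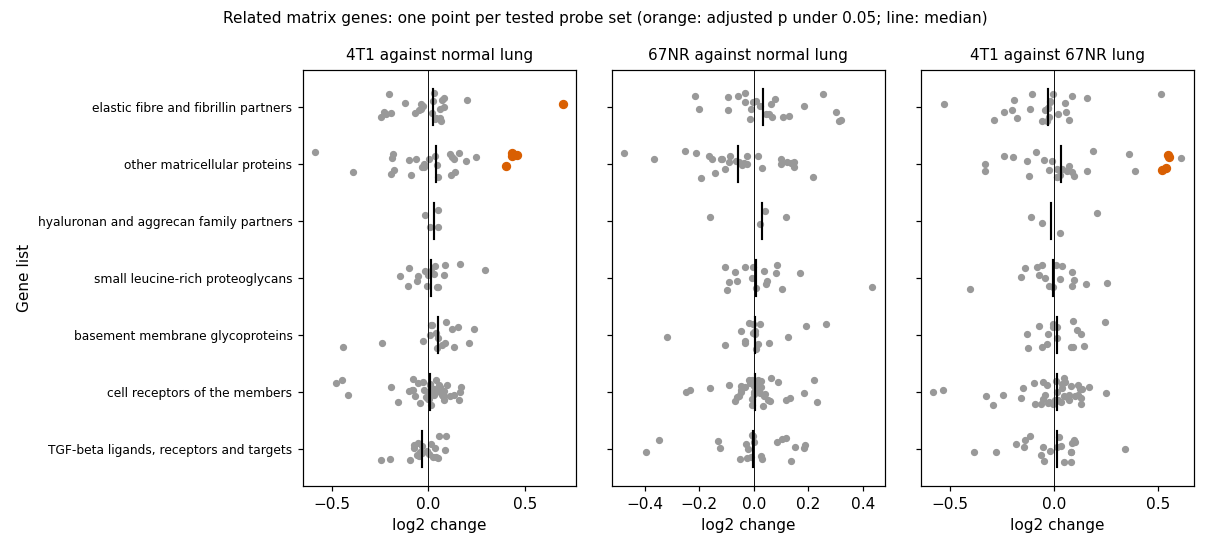
Log2 changes of the tested probe sets of the related gene lists in each comparison, with 1 point per probe set; orange points had an adjusted p under 0.05 in limma, and black lines are list medians. The orange points are Emilin2 and Tgfbi in 4T1 against normal lungs and Tgfbi in 4T1 against 67NR lungs.

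Within the lists the other genes did not pass the threshold, and the 3 of each with the smallest p had these values. Among elastic fibre genes (14 tested), the microfibril protein Ltbp3 had a log2 change of 0.16 in 4T1 against 67NR lungs, Emilin1 -0.29 and the elastin cross-linking enzyme Loxl1 -0.53 (limma adjusted p = 0.265, 0.292 and 0.332). Loxl1 averaged 11.12 ± 0.19 in 4T1 lungs (SD, n = 4) and 11.65 ± 0.30 in 67NR lungs (SD, n = 5) on the log2 scale. Among other matricellular genes (17 tested), Ccn2 had 0.61 and Vtn -0.24 in 4T1 against 67NR lungs, and Ccn1 had -0.58 in 4T1 against normal lungs (limma adjusted p = 0.267, 0.304 and 0.623).

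Of 8 small leucine-rich proteoglycan genes, Prelp had 0.43 in 67NR against normal lungs, Aspn 0.29 in 4T1 against normal and Ogn -0.14 in 4T1 against 67NR lungs (limma adjusted p = 0.331, 0.523 and 0.563). Hyaluronan and aggrecan family genes (4 tested) had changes of 0.21 or less in size, with Ncan at 0.21 in 4T1 against 67NR, Bcan at 0.12 in 67NR against normal and Has1 at 0.053 in 4T1 against normal lungs. Of 11 basement membrane genes, Lama4, a laminin chain of vessels, had -0.44 in 4T1 against normal lungs on 1 probe set (limma adjusted p = 0.178) and 0.051 on another. In 67NR against normal lungs the same probe sets had -0.32 (limma adjusted p = 0.403) and 0.12. Lama3 and Hspg2 had 0.19 and 0.26 in 67NR against normal lungs (limma adjusted p = 0.488 and 0.526), and the other Hspg2 probe set had -0.047.

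Receptor genes included the integrin chains and CD44 that bind fibronectin, periostin, tenascin-C or hyaluronan, and 15 of 16 were tested. Itgb3 had -0.33 and Sdc1 -0.29 in 4T1 against 67NR lungs, and Sdc4 -0.48 in 4T1 against normal lungs (limma adjusted p = 0.202, 0.341 and 0.572). The probe sets of both syndecans disagreed: the other 3 of Sdc1 had 0.016, 0.021 and 0.25, and the other of Sdc4 had 0.054. In the TGF-beta list, where 11 genes were tested, the signal transducer Smad3 had -0.39 in 4T1 against 67NR lungs, at an adjusted p of 0.0536 in limma. Its 4T1 arrays lay under all 67NR arrays, as in 2.23% of all probe sets tested. Its other probe set had -0.14. The ligand gene Tgfb2 had -0.35 and Smad2 -0.13 in 67NR against normal lungs (limma adjusted p = 0.455 and 0.573).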

How the data were processed

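Lung RNA of 14 samples was measured on 1 biotin-labelled Affymetrix array each, from 3 µg of total RNA per the labels' protocols. The values the authors deposited are linear probe set intensities. How probe sets were summarised and normalised, and the genome build, are not given in the sources used here. Detection calls were not used here, so a level filter stood in for them, and precision is limited by the number of arrays. Symbols came from the platform annotation (2016): of 45101 probe sets, 34958 had 1 symbol, 932 several and 9211 none listed. Samples were grouped by their titles and the injected line.

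No normalisation was added. Changes are on the scale log2(intensity + 16), which understates those of dim genes. Probe sets with 1 symbol in the upper 60% of mean level (mean log2 above 6.83) were tested, 20975 in all. The 14 arrays entered a single limma 3.58.1 fit (R 4.3.3) with a mean for each group, leaving 11 residual degrees of freedom. Tests were two-sided, with Benjamini-Hochberg adjustment over all probe sets tested and a threshold of 0.05. The steps were tested on simulated data. Correlations used 100000 permutations of all arrays, without regard to group.

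The members, gene lists and the alternative without 67NR replicates 1 and 3 were chosen with earlier results of these data known. The text names all members, every related gene past the threshold and up to 3 further genes per list with the smallest p. Per-array values are given for the brightest probe set of each member and of each called related gene, plus 1 Vcan and 1 Eln probe set chosen for their size. Probe sets of Vcan and Fn1 that opposed the brightest one in sign are not given array by array. Alternatives covered scaling, offset, filter, unit of the fit, variance, samples and replicate block. Promoter windows came from RefSeq (GRCm38.p6) and motifs were counted on both strands.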

Additional observations from a re-analysis of the deposited data

Results flagged for a closer look

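Within groups, 8 values stood far from the other arrays of their group, among 69 groups of arrays looked at for 23 probe sets, where chance alone would give about 3.45 (1 in 20). Of these 8, 7 belong to probe sets of Tnc or Vcan that lay under the level filter, where small intensities set the distances. On the log2 scale, Tnc 1456344_at was high at 4.65 on 67NR replicate 1. Vcan 1433043_at was low at 4.65 on 67NR replicate 3 and at 5.32 on normal replicate 3. Vcan 1427257_at was high at 6.16 on 67NR replicate 2, and Vcan 1447586_at low at 4.36 on 67NR replicate 1. Vcan 1447887_x_at was high at 4.3 on 4T1 replicate 2 and at 4.77 on 67NR replicate 3. The 1 value in a tested probe set was Tgfbi 1437463_x_at, low at 9.74 on normal replicate 4, where the nearest normal array was at 9.89.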

How the results depend on the processing

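Member probe sets called numbered 0 in all 25 alternatives in 4T1 against normal and in 67NR against normal lungs, and 0 to 1 with 1 array left out in 4T1 against 67NR lungs, the 1 being the dimmer Eln probe set without 67NR replicate 5. Related genes called in 4T1 against normal lungs were 1 with an offset of 1, without a level filter, with only the 2 groups compared, with the replicate block and without 67NR replicates 1 and 3, and 0 to 2 with 1 array left out (0 without 4T1 replicate 1, 4T1 replicate 3 or normal replicate 4). In 4T1 against 67NR lungs they were 1 to 2 with 1 array left out. All probe sets called in 67NR against normal lungs numbered 1 without a level filter, 2 without 67NR replicates 1 and 3, and 0 to 1 with 1 array left out (1 without 67NR replicate 1 or normal replicate 1). In 4T1 against 67NR lungs they numbered 49 with only the 2 groups compared, 53 without 67NR replicates 1 and 3, and 49 to 139 with 1 array left out, of which the low counts were 49 (4T1 replicate 4 out), 58 (4T1 replicate 1 out) and 60 (67NR replicate 2 out). None of the log2 changes that turned sign was called with all arrays, and the largest in size was that of the dimmer Eln probe set in 4T1 against normal lungs, -0.43. In 4T1 against 67NR lungs Postn was -0.0046 with quantile normalisation and Fn1 0.065 with the mean of its probe sets. Without 67NR replicates 1 and 3, Postn was -0.0066 and Thbs1 -0.15 in 67NR against normal lungs, and Fn1 was 0.0063 and Thbs1 0.072 in 4T1 against 67NR lungs. With 1 array left out, the ranges in 4T1 against normal lungs were -0.27 to 0.013 for Eln, -0.67 to 0.030 for its dimmer probe set, -0.023 to 0.16 for Postn, -0.20 to 0.066 for Thbs1 and -0.15 to 0.053 for Tnc. In 67NR against normal lungs they were -0.010 to 0.039 for Postn, -0.073 to 0.22 for Thbs1 and -0.20 to 0.0057 for Tnc, and in 4T1 against 67NR lungs -0.019 to 0.016 for Fn1, -0.043 to 0.14 for Postn and -0.066 to 0.16 for Tnc. The causes were not tested. Same-numbered samples share only a number: deviations of the 13 such pairs correlated at -0.27 to 0.18, and 0 of 14 arrays correlated best with their own number. With the replicate block, Eln was -0.93 in 4T1 against 67NR lungs (limma adjusted p = 0.174), and 55, 0 and 64 probe sets were called in 4T1 against normal, 67NR against normal and 4T1 against 67NR lungs.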
